A study of Mus musculus with 20 samples.

Results

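The G2 and M phase genes are 36 genes that act in the last part of the cell cycle, from the preparation for mitosis to the separation of the daughter cells. They were taken by symbol: every probe set (a group of array features that reads the transcript of a gene) annotated to exactly 1 member symbol was included. Of the 36 genes, 35 had such a probe set, and together they held 76 of the 44200 probe sets in the table, which named 17944 genes. No probe set was annotated to Ccnb1 alone, and cyclin B1 was not analysed here.

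The RNA of mouse pre-B cells was read on 20 Affymetrix arrays. The 5 groups of lines had been transformed by the v-abl oncogene, and all had been kept for 48 hours in 3 uM STI571 (imatinib), an inhibitor of the Abl kinase. RAG-2-deficient lines (n = 3), which cannot make the RAG recombinase that cuts DNA at antigen receptor genes, were the control. Lines of wild type genotype (n = 3) can both make such cuts and repair them. Artemis-deficient lines (n = 3) lack the nuclease that opens the hairpins on the cut ends. Artemis- and ATM-deficient lines (n = 2) also lack the kinase ATM, which signals DNA breaks, and each was read on 2 arrays that the design text calls technical replicates. IkB-DN samples (n = 3) were Artemis-deficient lines that expressed a dominant negative IkB, an inhibitor of NF-kB. The labels do not tell whether the 3 IkB-DN samples were separate lines. Purified bone marrow pre-B cells were of 2 kinds, Artemis-deficient (n = 2) and, as the control, RAG-1-deficient (n = 2), and all mice carried an IgH transgene. Their RNA was taken directly after purification, and the labels do not give the ages of the mice. The title of wild type replicate 3 contains the letters ATM although its source description says wild type, and the RAG-2-deficient titles contain the letters Bcl, which are not explained. Nor are the letters INV, which only the title of replicate 3 has among the Artemis-deficient lines. P-values measure only the spread between these samples, which may be technical.

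Progress through mitosis is driven by cyclin-dependent kinase 1 with its A and B cyclins, joined by the Polo and Aurora kinases. Kinesin motors and their partners build the spindle, kinetochore proteins attach the chromosomes to it, and a checkpoint holds back the anaphase-promoting complex until all are attached. Transcripts of these genes are low in resting cells and rise late in the cycle. Their promoters are known for CCAAT boxes, bound by NF-Y, and for a cell cycle homology element of the form TTTGAA or TTCGAA, bound by the MuvB complex, which works with B-MYB and FOXM1 in cycling cells and with repressors in resting cells. Block of the v-abl kinase is known to arrest v-abl pre-B lines in G1, and normal pre-B cells in the marrow divide several times before they rearrange light chain genes.

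The promoters of 30 of the 36 members were found in the RefSeq promoter table (build GRCm38.p6), which held 32851 windows for 27025 symbols. A window spans 250 bases before and 50 bases after the start of the gene, 300 bases in all. Both motifs were searched on both strands, so that CCAAT can be read as ATTGG and TTTGAA as TTCAAA. The homology element, in either form, was found in 24 of the 30 members (80.0%) and in 19.4% of all symbols. CCAAT was also found in 24 of the 30 members (80.0%), and in 37.9% of all symbols. Within the 250 bases before the start alone, the homology element was found in 36.7% of members and 17.4% of all symbols, and CCAAT in 80.0% of members and 34.5% of all symbols. The windows of Birc5, Melk, Nusap1 and Kif18a held neither motif. A match is a run of letters and does not show that a factor was bound.

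Over the line samples the 4 members with neither motif, Nusap1, Birc5, Melk and Kif18a, correlated with the other members at 0.99, 0.97, 0.88 and 0.48. Cdc25b and Cenpa, at 0.41 and 0.71, had CCAAT in the 250 bases before the start. They had the homology element only when the bases after the start were included. Whether the motifs go with the correlation was not tested over the members. The 250 bases before the start are shown for 3 members with motifs and, as an example of a promoter without them, for Kif18a, the member that passed the tests in the lines. All are written 5′ to 3′ on the strand of the gene, and capitals mark the 2 motifs. Cdk1 lies on the minus strand (chr10:69352913-69353162), Top2a on the minus strand (chr11:99024190-99024439), Cdc20 on the minus strand (chr4:118437344-118437593) and Kif18a on the plus strand (chr2:109280488-109280737).
Cdk1: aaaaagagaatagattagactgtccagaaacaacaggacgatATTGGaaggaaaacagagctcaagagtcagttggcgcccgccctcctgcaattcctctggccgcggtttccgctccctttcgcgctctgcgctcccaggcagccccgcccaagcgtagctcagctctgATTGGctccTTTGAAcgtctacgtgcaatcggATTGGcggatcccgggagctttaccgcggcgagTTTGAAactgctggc
Top2a: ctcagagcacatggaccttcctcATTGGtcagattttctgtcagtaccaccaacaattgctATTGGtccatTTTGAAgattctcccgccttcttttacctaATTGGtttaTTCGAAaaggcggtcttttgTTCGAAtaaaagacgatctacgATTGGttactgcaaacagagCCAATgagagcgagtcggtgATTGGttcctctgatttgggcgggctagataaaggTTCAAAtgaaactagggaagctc
Cdc20: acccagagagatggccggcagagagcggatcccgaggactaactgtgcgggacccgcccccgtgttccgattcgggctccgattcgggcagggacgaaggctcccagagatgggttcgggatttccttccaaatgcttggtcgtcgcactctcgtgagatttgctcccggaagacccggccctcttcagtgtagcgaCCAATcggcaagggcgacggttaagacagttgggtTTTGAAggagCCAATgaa
Kif18a: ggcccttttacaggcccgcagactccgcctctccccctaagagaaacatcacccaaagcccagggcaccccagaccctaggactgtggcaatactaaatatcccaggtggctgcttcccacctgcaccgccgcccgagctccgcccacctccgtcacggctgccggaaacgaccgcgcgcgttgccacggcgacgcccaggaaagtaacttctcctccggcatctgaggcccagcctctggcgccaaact
Cdk1 had 2 copies of TTTGAA, followed by 65 and by 9 bases before the start, and 3 CCAAT boxes. Top2a had 4 copies of the homology element and 6 CCAAT boxes in the same distance. Cdc20 had 1 TTTGAA, followed by 12 bases, and 2 CCAAT boxes, and the stretch of Kif18a had no capitals. None of the marked letters of 1 motif overlapped those of the other.

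The arrays of the lines had median signals of 26.8 to 27.7, and those of the marrow of 46.9 to 47.8, so levels were compared within each set only. Both Atm probe sets read lower in the Artemis- and ATM-deficient lines than in every other line sample. The first read 5.44 to 5.48 against 6.42 to 7.65 (log2 levels), and the second 6.82 to 6.83 against 7.0 to 7.62. On the first, the 3 wild type samples, whose replicate 3 has ATM in its title, read 7.41 to 7.46. Rag2 was detected at 4.69 to 8.38 in the RAG-2-deficient lines and at 5.99 to 8.95 in the others, and Rag1 at 12.39 to 12.71 in the RAG-1-deficient marrow and 10.28 to 10.82 in the Artemis-deficient marrow. The sources do not say whether these probe sets lie in the deleted parts, so they do not check the labels, and no probe set was annotated to the Artemis gene Dclre1c alone. Of the pre-B cell markers, 12 of 12 with a probe set passed the filter on low values in both sets. In the lines, 0 of 8 T and NK cell markers, 1 of 7 erythroid and 1 of 7 dendritic cell markers passed, and 5 of 12 neutrophil and monocyte markers. Of 8 mature B and plasma cell markers 6 passed (Cd22, Cr2, Prdm1, Sdc1, Jchain and Xbp1), with mean relative levels of −0.09 to 2.21 in the RAG-2-deficient lines, −0.16 to 1.42 in wild type and −1.22 to 0.32 in the other lines.

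The members differed widely between replicates of the same group, and nearly all of them moved together. Levels in the lines are given as log2(signal + 6), for 1 probe set per gene, the one with the highest mean level. All 35 genes and 59 of their probe sets passed the filter, which asked for 2 samples at or above the median signal of their array. Cdc25c and Kif4 had no value in RAG-2-deficient replicate 3, Artemis-deficient replicate 3 and IkB-DN replicates 2 and 3, and were left out of summaries over samples. That left 33 members with a level in all 14 line samples. Each level was set against the mean of its own gene over the 14 samples, and the mean of these values over the 33 members was taken for each sample. The highest value belonged to wild type replicate 1 (2.36) and the lowest to wild type replicate 3 (−1.13). Wild type replicate 2 lay between them at 0.64. RAG-2-deficient replicates 1 and 2 stood at 0.23 and 0.93, and replicate 3 at −1.05. Artemis-deficient replicates 1, 2 and 3 stood at 0.10, −0.19 and −1.09. The Artemis- and ATM-deficient lines were both high, at 0.86 and 0.98, and the IkB-DN samples were all low, at −0.62, −1.05 and −0.97. In each of the first 3 groups, replicates 1 and 2 lay above the IkB-DN range and replicate 3 lay at or below its lower end. Replicate numbers follow the order of the samples in the series, and equal numbers do not pair samples across groups. In RNA of whole cultures, fewer cells in mitosis and less of these transcripts per cell cannot be told apart.

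**Figure D1:**
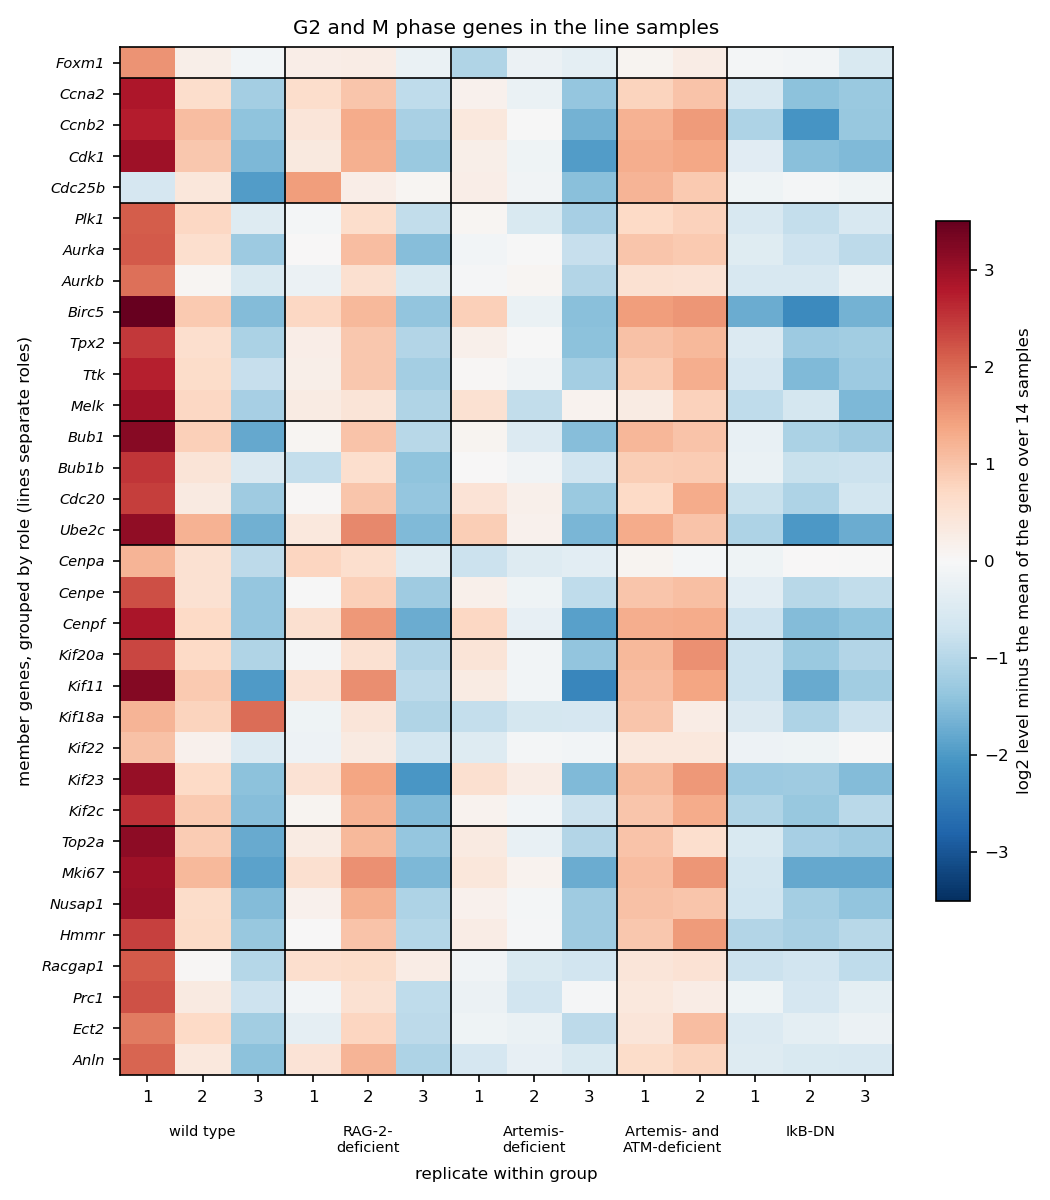
Levels of the 33 members with a value in all 14 line samples, as log2 level minus the mean of the gene over the samples; each row is a gene, ordered by role, each column a sample, red is above and blue below the mean of the gene. Wild type replicate 1 is red for 32 of 33 members and the IkB-DN columns are blue for nearly all, while Kif18a is red in wild type replicate 3.

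The direction was shared by nearly all members within a sample. In wild type replicate 1, 32 of 33 members lay above their own mean, and in both wild type replicate 2 and RAG-2-deficient replicate 2 all 33 did. In IkB-DN replicates 1 and 3 none of the 33 lay above its mean, and in wild type replicate 3, Artemis-deficient replicate 3 and IkB-DN replicate 2 it was 1 member each. The correlation of each member with the mean of the other members over the 14 samples had a median of 0.97, and it was 0.90 or more for 25 of the 33. With the group means taken out, the median was 0.98, and without wild type replicate 1 it was 0.96. These values describe genes read on the same arrays. Nusap1, a microtubule-binding protein of the spindle, was closest to the rest (r = 0.99), followed by Tpx2, Cenpe and Cdk1. The least alike were Cdc25b (r = 0.41), Kif18a (0.48), Cenpa (0.71), Foxm1 (0.72) and Kif22 (0.85), with Prc1, Melk and Racgap1 at 0.88 each.

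The spread within groups was wide beside other genes. Pooled over the 5 groups, the standard deviation (SD) within groups had a median of 1.07 over the members and of 0.25 over 9437 genes with a value in every line sample. It lay above the 90th percentile of all genes (0.64) for 29 of 33 members. The 4 below that mark were Kif22 (0.43), Kif18a (0.50), Foxm1 (0.51) and Cenpa (0.61), and the widest was Kif11 (1.54). By group, the median SD of the members was 1.80 in wild type, 1.02 in RAG-2-deficient, 0.71 in Artemis-deficient, 0.12 in Artemis- and ATM-deficient and 0.29 in IkB-DN lines. Over all genes these medians were 0.25, 0.22, 0.22, 0.17 and 0.14. The median of the members was above that of all genes in every group but the Artemis- and ATM-deficient lines, each of which is a mean of 2 arrays.

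**Figure D2:**
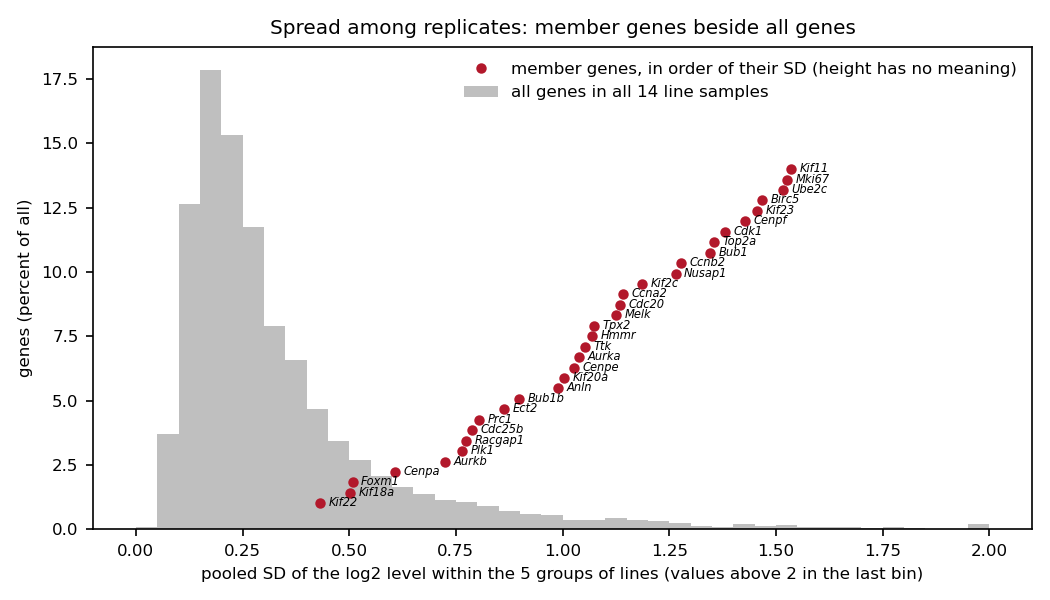
Pooled SD of the log2 level within the 5 groups of lines; grey bars give the percent of all genes in each bin of SD (values above 2 in the last bin), and red points the members in order of their own SD, their height having no meaning. Members run from 0.43 (Kif22) to 1.54 (Kif11), while the median of all genes is 0.25.

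The transcription factor of the list, Foxm1, which activates many of the other members, covered a 6.23-fold range, where the median over the 33 members was 14.8-fold. It stood at 6.81, 5.44 and 5.12 in wild type replicates 1 to 3, at 5.45, 5.48 and 4.99 in RAG-2-deficient replicates 1 to 3 and at 4.17, 5.0 and 4.88 in Artemis-deficient replicates 1 to 3. In the Artemis- and ATM-deficient lines it was 5.31 and 5.48, and in the IkB-DN samples 5.15, 5.12 and 4.68. All 3 wild type samples were above all 3 Artemis-deficient ones, though the change of −1.10 ± 0.38 (standard error, SE) was not called (adjusted p = 0.253, limma with Benjamini-Hochberg adjustment). On a second Foxm1 probe set these groups overlapped, at 6.87, 5.74 and 5.0 in the wild type and 5.29, 4.99 and 4.82 in the Artemis-deficient lines.

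Among the cyclins and their kinase, Cdk1 covered a 30.6-fold range. In wild type replicates 1 to 3 its level was 9.91, 7.86 and 5.37. It was 7.28, 8.18 and 5.64 in RAG-2-deficient replicates 1 to 3, and 7.14, 6.77 and 4.98 in Artemis-deficient replicates 1 to 3. The Artemis- and ATM-deficient lines read 8.21 and 8.28, and the IkB-DN samples 6.54, 5.47 and 5.40. Replicate 3 was the lowest of each of the first 3 groups, and these groups overlapped each other and the IkB-DN samples. Ccna2, cyclin A2, which pairs with CDK2 and CDK1, ran from 5.44 in IkB-DN replicate 2 to 9.70 in wild type replicate 1. Ccnb2, cyclin B2, ran from 5.24 to 10.06 between the same samples. Cdc25c, a phosphatase that activates CDK1, was read in 10 samples between 2.81 and 5.61.

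Cdc25b, the related phosphatase that starts CDK1 activation, did not follow this order. It was highest in RAG-2-deficient replicate 1 (10.05) and lowest in wild type replicate 3 (6.62), a 10.8-fold range. Wild type replicate 1, the highest sample for 31 of the 33 members, had a Cdc25b level of 7.99, below every RAG-2-deficient (10.05, 8.82 and 8.63) and IkB-DN sample (8.41, 8.52 and 8.43). The Artemis- and ATM-deficient lines were high at 9.78 and 9.50, and the Artemis-deficient lines read 8.80, 8.45 and 7.12.

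Among the mitotic kinases and their partners, Birc5 (survivin), a subunit of the chromosomal passenger complex with Aurora B, covered 54.7-fold. Such ranges depend on the pseudocount where the lowest signals are under it, as they were in at least 1 sample for 4 of the 33 members (Birc5, Melk, Kif23 and Ttk). With a pseudocount of 1 the range of Birc5 was 102-fold and that of Melk 81.4-fold, and with one at the median signal they were 19.1-fold and 6.35-fold. Wild type replicates 1 to 3 read 9.19, 6.55 and 4.12. Levels were 6.38, 6.77 and 4.25 in those of the RAG-2 group and 6.48, 5.41 and 4.19 in those lacking Artemis. It was 7.11 and 7.19 in the Artemis- and ATM-deficient lines, and 3.91, 3.41 and 3.99 in the IkB-DN samples. The IkB-DN samples lay below every other line sample. Plk1, the Polo kinase, covered 9.69-fold, between 5.17 in Artemis-deficient replicate 3 and 8.44 in wild type replicate 1. Aurkb, the kinase partner of Birc5, covered 7.83-fold, and Aurka, the spindle pole kinase, 12.5-fold. Tpx2, which activates Aurora A, covered 15.2-fold, Ttk, a checkpoint kinase, 19.0-fold, and the kinase Melk 22.8-fold at the pseudocount used throughout.

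The checkpoint and anaphase genes correlated with the other members at 0.91 (Bub1b) to 0.98 (Bub1). Cdc20, which activates the anaphase-promoting complex, read 10.70, 8.60 and 7.05 in wild type replicates 1 to 3. It read 8.33, 9.25 and 6.92 in RAG-2-deficient replicates 1 to 3, and 8.77, 8.47 and 6.98 in Artemis-deficient replicates 1 to 3. It was 8.97 and 9.57 in the Artemis- and ATM-deficient lines and 7.50, 7.21 and 7.63 in the IkB-DN samples. Here the third replicates of the first 3 groups were below all IkB-DN samples. Ube2c, the ubiquitin-conjugating enzyme of that complex, covered 35-fold, Bub1, a checkpoint kinase, 31.7-fold, and Bub1b, its relative that inhibits the complex, 14.8-fold.

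Of the kinetochore members, Cenpf covered 27.0-fold and the motor Cenpe 12.2-fold. Cenpa, the histone H3 variant that marks centromeres, covered only 4.32-fold. Its level was 10.12, 9.47 and 8.01 in wild type, 9.68, 9.52 and 8.47 in RAG-2-deficient, 8.17, 8.48 and 8.57 in Artemis-deficient, 9.04 and 8.87 in the Artemis- and ATM-deficient and 8.77, 8.95 and 8.93 in the IkB-DN samples. RAG-2-deficient replicate 3 was the only sample of its group that did not exceed all Artemis-deficient and IkB-DN samples.

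The kinesins differed among themselves. Kif11, which slides spindle microtubules apart, covered 45.5-fold, from 3.73 in Artemis-deficient replicate 3 to 9.23 in wild type replicate 1. Kif23, a motor of the central spindle, covered 33.7-fold, Kif2c, which takes microtubule ends apart, 17.2-fold, and Kif20a 13.2-fold. Kif22, a motor on chromosome arms, covered 3.14-fold, the least of the 33 members also with a pseudocount of 1 or at the median signal. Its levels lay between 9.24 and 10.89.

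Kif18a, which shortens kinetochore microtubules and damps chromosome movement, had a pattern of its own. It was high in all wild type lines (7.66, 7.25 and 8.41), and highest in replicate 3, where the other members were low. It was 6.32, 6.89 and 5.41 in RAG-2-deficient replicates 1 to 3 and 5.64, 5.85 and 5.88 in Artemis-deficient replicates 1 to 3. The Artemis- and ATM-deficient lines read 7.44 and 6.73, and the IkB-DN samples 5.96, 5.38 and 5.71. The wild type lines lay above all RAG-2-deficient, Artemis-deficient and IkB-DN samples. With the group means taken out, the correlation of Kif18a with the other members was 0.01.

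**Figure D3:**
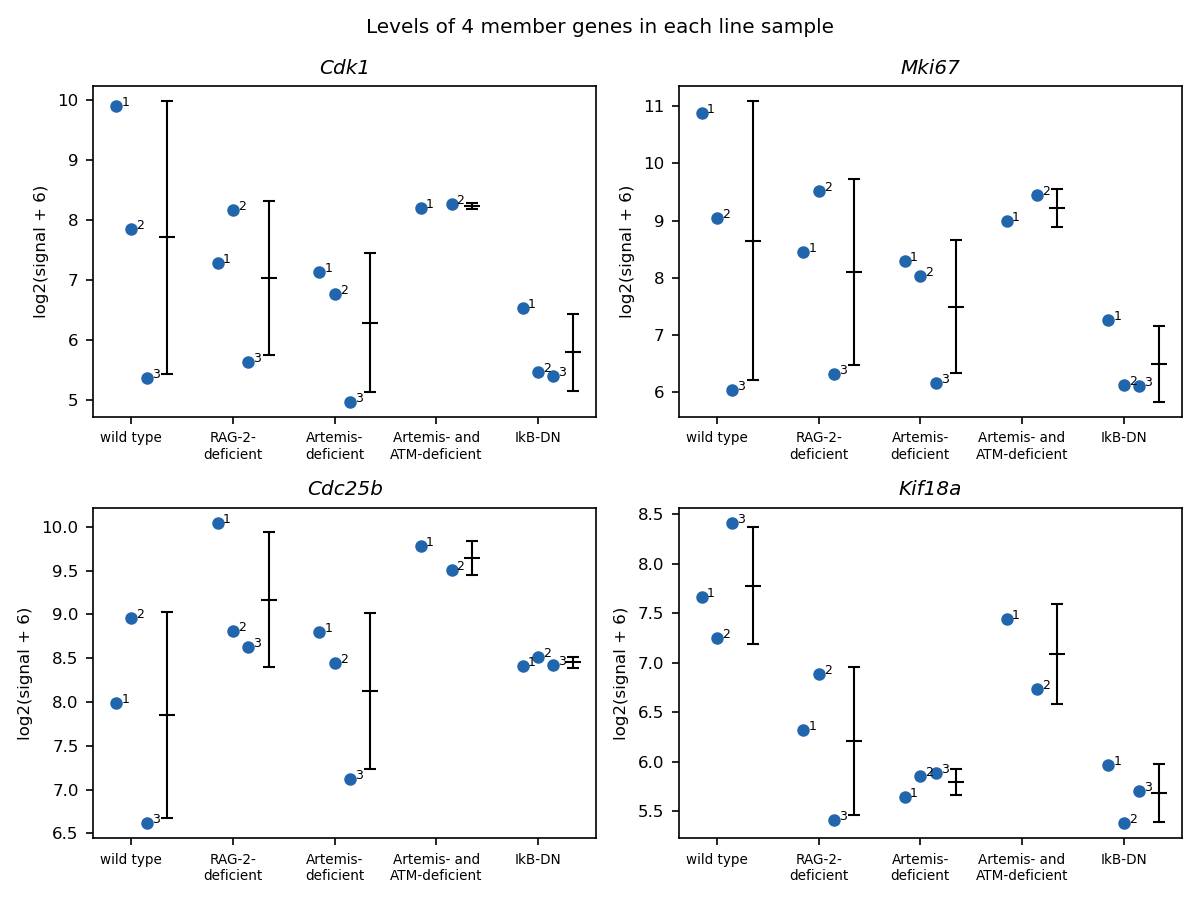
Levels of Cdk1, Mki67, Cdc25b and Kif18a as log2(signal + 6) in each line sample; points are samples with their replicate number, and bars give the mean and SD of the group (n = 3, or 2 for the Artemis- and ATM-deficient lines). Cdk1 and Mki67 are highest in wild type replicate 1 (9.91 and 10.88), Cdc25b is highest in RAG-2-deficient replicate 1, and Kif18a separates wild type from Artemis-deficient lines.

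Chromosome and spindle proteins covered 13.2-fold (Hmmr) to 29.8-fold (Top2a). Mki67, the Ki-67 antigen that coats mitotic chromosomes, read 10.88, 9.04 and 6.04 in wild type replicates 1 to 3. It read 8.46, 9.52 and 6.32 in RAG-2-deficient replicates 1 to 3 and 8.30, 8.04 and 6.16 in Artemis-deficient replicates 1 to 3. It was 8.99 and 9.45 in the Artemis- and ATM-deficient lines and 7.27, 6.12 and 6.11 in the IkB-DN samples. Top2a, the topoisomerase that untangles sister chromatids, was 10.74, 8.52 and 5.85, then 7.90, 8.77 and 6.27, then 7.93, 7.37 and 6.59 in the same 3 groups. It was 8.62 and 8.22 in the Artemis- and ATM-deficient lines and 7.10, 6.46 and 6.37 in the IkB-DN samples. For both genes the third replicates of wild type and RAG-2-deficient lines lay within or below the range of the IkB-DN samples. The cytokinesis genes had narrower ranges: Anln (anillin) 11.2-fold, Racgap1 8.82-fold, the microtubule bundler Prc1 8.72-fold and the RhoA activator Ect2 8.11-fold.

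Genes with more than 1 probe set gave the same picture on most of them. Of 24 further member probe sets, 19 correlated with the chosen one at 0.90 or more over the line samples. The lowest were a Tpx2 probe set at 0.35, a second Foxm1 probe set at 0.71 and a second Cenpa probe set at 0.73.

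Tests between groups of lines asked whether a member differed beyond this spread, with limma over all 21921 probe sets that passed the filter, and called a probe set at an adjusted p below 0.05. An F test over the 5 groups called 1 of 59 member probe sets, that of Kif18a (adjusted p = 0.0151). Over all probe sets it called 9.44%, and 4 member probe sets had an unadjusted p below 0.05.

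Against the RAG-2-deficient control, limma called none of the 59 member probe sets in any of 4 groups. The background of calls over all probe sets was 1.15% for Artemis-deficient, 0.832% for wild type, 0.695% for Artemis- and ATM-deficient and 9.96% for IkB-DN lines. At an unadjusted p below 0.05 there were 1, 3, 1 and 4 member probe sets. A pair of results came near the threshold. Kif18a in the wild type lines was at 1.57 ± 0.37 (2.97-fold higher, adjusted p = 0.0797). It was called when RAG-2-deficient replicate 2 was left out (adjusted p = 0.0443) or wild type replicate 2 (0.0481). The other was the second Cenpa probe set in the IkB-DN samples, at −2.02 ± 0.67 (adjusted p = 0.0749). That probe set was at 6.06, 5.57 and 5.44 in RAG-2-deficient replicates 1 to 3, 3.22, 3.61 and 4.35 in Artemis-deficient replicates 1 to 3, 4.37 and 3.60 in the Artemis- and ATM-deficient lines and 2.72, 4.76 and 3.52 in the IkB-DN samples. All 3 Artemis-deficient groups lay below the RAG-2-deficient lines on it, while the wild type lines read 6.70, 6.45 and 4.10. Its lowest levels (2.72, 3.22 and 3.52) were signals under the pseudocount of 6. On the main Cenpa probe set, given above, each of these groups overlapped the RAG-2-deficient lines.

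The 4 comparisons with RAG-2-deficient lines share those control samples, so their values are given side by side only. The median change over the 35 members was −0.44 in Artemis-deficient, 0.61 in wild type, 0.91 in Artemis- and ATM-deficient and −0.92 in IkB-DN lines, where the median of all genes lay within 0.02 of 0. The number of members with a negative change was 33, 3, 2 and 34. The wild type median became −0.34 without wild type replicate 1 and 1.53 without replicate 3. It was 1.16 when RAG-2-deficient replicate 2 was left out and 0.05 when replicate 3 was. The Artemis-deficient median became −0.66 and −0.04 without Artemis-deficient replicates 1 and 3. With RAG-2-deficient replicate 2 left out it was 0.07, and with replicate 3 left out it was −1.0. For the Artemis- and ATM-deficient lines it was 1.46 and 0.40 without RAG-2-deficient replicates 2 and 3, and for the IkB-DN samples −0.56 without RAG-2-deficient replicate 2.

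Between Artemis-deficient and wild type lines, limma called 1 of 59 member probe sets, and 0.503% of all probe sets. Kif18a was lower in the Artemis-deficient lines by 3.96-fold (−1.99 ± 0.37, adjusted p = 0.0395). The call was lost without wild type replicate 1 or 3 or any Artemis-deficient replicate (adjusted p = 0.0734 to 0.0915), and with these 2 groups alone in the fit (0.157). The 6 samples did not overlap in Kif18a. The median change of the 35 members was −1.01, with 34 negative, and it was −0.07 without wild type replicate 1, −1.90 without wild type replicate 3 and −0.67 without Artemis-deficient replicate 3.

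The comparison of Artemis-deficient with Artemis- and ATM-deficient lines asks what ATM adds to the response to unrepaired ends. Both lines that also lack ATM lay above all 3 Artemis-deficient lines for 32 of the 33 members, where 12.3% of all genes did so. The median change of Artemis-deficient against Artemis- and ATM-deficient lines was −1.30, negative for all 35 members. limma called none of the 59 member probe sets (0.283% of all probe sets were called), and 4 had an unadjusted p below 0.05. Kif18a was the nearest at −1.29 ± 0.41 (adjusted p = 0.279). Cenpf, for example, was 6.28, 5.27 and 3.66 in the Artemis-deficient lines and 6.82 and 6.84 in the Artemis- and ATM-deficient lines.

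The same 2 lines stood above all 3 IkB-DN samples in 32 of 33 members, where 23.3% of all genes did. This comparison was added after the values were seen, and it differs in both ATM and NF-kB. The median change was 1.77, positive for all 35 members. In the fit of all 5 groups limma called none of the 59 member probe sets, beside 6.71% of all probe sets, and 24 of them had an unadjusted p below 0.05. Birc5 was higher in the Artemis- and ATM-deficient lines by 3.38 ± 1.16 (adjusted p = 0.104), Ccnb2 by 2.85 ± 1.01 (0.113) and a Kif2c probe set by 2.54 ± 0.71 (0.0531). When the fit held only these 2 groups, whose samples varied less, 50 of the 59 member probe sets were called higher, beside 15.0% of all probe sets. They covered 31 genes, with changes between 0.49 and 3.38 and a median of 1.85. The calls depend on the choice of these 2 groups, made with the values known. Their median SD of the members (0.12 and 0.29) was the smallest of all groups of lines. The 0.12 is between means of 2 arrays each, and the IkB-DN samples may not be separate lines. The medians by role in this comparison were 2.24 for the kinesins, 2.17 for chromosome and spindle proteins, 1.99 for the cyclins with Cdk1 and the CDC25 phosphatases, 1.89 for checkpoint and anaphase genes, 1.74 for kinetochore genes, 1.64 for the kinases and 1.17 for cytokinesis genes, and Foxm1 changed by 0.41 ± 0.43.

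Between Artemis-deficient lines and IkB-DN samples, which differ by the dominant negative IkB, limma called none of the 59 member probe sets and 2.05% of all. None had an unadjusted p below 0.05 either. The median change was 0.49, positive for 30 of 35 members, and it was 0.19 without Artemis-deficient replicate 1 and 0.86 without Artemis-deficient replicate 3. In 2 of 33 members (Birc5 and Kif2c) the Artemis-deficient samples all lay above the IkB-DN samples, where 14.7% of all genes did so. The change of Birc5 was 1.59 ± 1.04 (adjusted p = 0.444). Some markers of another cell type moved with the IkB-DN group: 5 of 12 neutrophil and monocyte markers passed the filter, and their mean relative level was 0.88 to 1.22 in the IkB-DN samples and −1.11 to 0.48 in the other lines. Against the RAG-2-deficient lines, 4 of the 5 had a positive change (up to 4.33) and 1 a negative one (−0.46). Lyz2, Itgam and Elane of this list were called higher than in the RAG-2-deficient lines, while S100a8, S100a9, Mpo and Ltf did not pass the filter in the lines. Itgam was not particular to the IkB-DN samples: it read 9.62 and 7.04 in the Artemis- and ATM-deficient lines and 8.84, 8.62 and 8.77 in the IkB-DN samples. Prdm1, a regulator of plasma cells, was called lower in the IkB-DN samples than in the RAG-2-deficient lines (−4.17 ± 0.83, adjusted p = 0.00987). The part of these cell types in the member levels was not tested.

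Both Artemis- and ATM-deficient lines were read on 2 arrays, and those arrays differed in nearly all members. In line 1, the first array was higher than the second for 34 of 35 members, by a median of 0.91 (1.88-fold). In line 2, the first array was lower than the second for 34 of 35 members, at a median difference of −1.17 (2.25-fold). The median absolute difference over all genes was 0.15 and 0.13. The difference of 30 and 33 of the 35 members exceeded the 90th percentile of all genes (0.50 and 0.47). Cdk1 read 8.80 and 7.62 on the arrays of line 1, and 7.54 and 9.02 on those of line 2. Birc5 read 7.80 and 6.42, then 6.32 and 8.06, and Top2a 9.34 and 7.90, then 7.43 and 9.0. Cdc25b was the exception in both lines, at 9.72 and 9.84, then 9.67 and 9.33. The mean relative level of the members was 1.30 and 0.42 on the arrays of line 1, and 0.42 and 1.53 on those of line 2. So the near-equal means of both lines (0.86 and 0.98) each stood for 1 higher and 1 lower array.

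**Figure D4:**
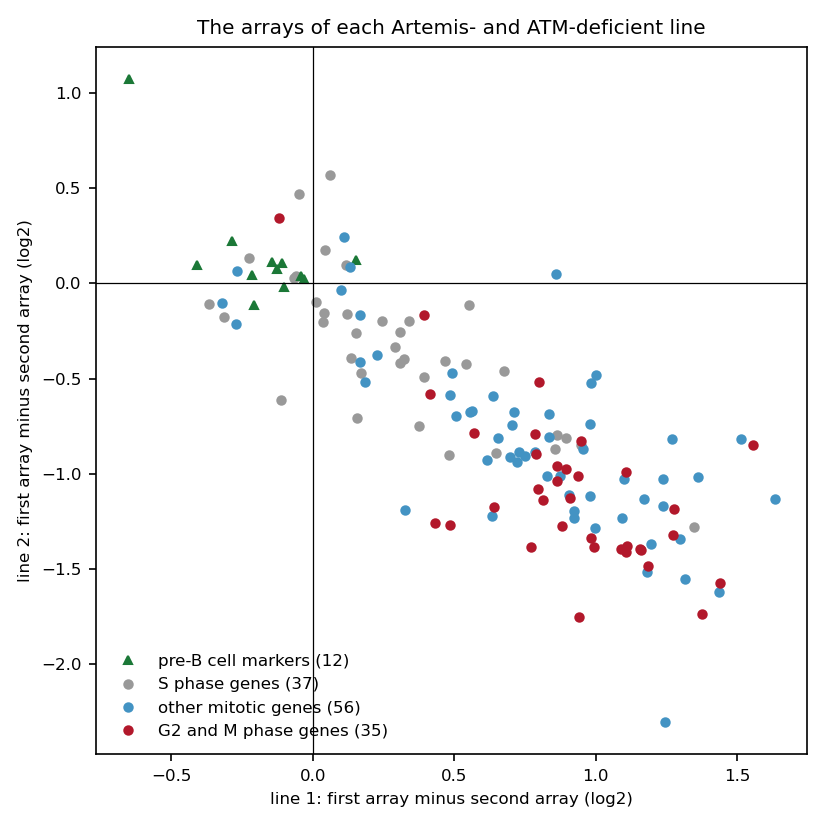
Difference between the first and second array of Artemis- and ATM-deficient line 1 (horizontal axis, log2) and line 2 (vertical axis, log2) for each gene; red points are members, blue other mitotic genes, grey S phase genes and green triangles pre-B cell markers. All members but Cdc25b lie at the lower right, at a median of 0.91 in line 1 and −1.17 in line 2. The pre-B markers lie nearer 0, apart from Rag1 at −0.65 in line 1 and 1.07 in line 2.

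Other gene lists showed how far this difference between arrays reached. Of 57 other mitotic genes, 54 were higher on the first array of line 1 (median 0.83), and of 56 in line 2, 4 were (median −0.88). S phase genes differed by medians of 0.27 and −0.33, the regulators of mitotic genes by 0.08 and −0.09, and pre-B cell markers by −0.14 and 0.09. Of 12 pre-B cell markers, 1 was higher on the first array of line 1 and 10 on that of line 2. The widest of them was Rag1, at −0.65 and 1.07. The sources do not say whether the arrays of a line shared an RNA extract or a culture. Taken singly, all 4 arrays lay above the 3 Artemis-deficient samples for 25 of 33 members (8.05% of all genes), and above the 3 IkB-DN samples for 30 of 33 (18.5% of all genes). Above the 3 RAG-2-deficient samples they lay for 1 of 33 members (8.85% of all genes). With the arrays of each line averaged, both lines lay above the RAG-2-deficient samples for 9 of 33 members, and for 1282 of 9622 genes.

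In the bone marrow, where levels are given as log2(signal + 11), the members differed little between samples, most read lower in the Artemis-deficient cells, and 1 probe set passed the test. The SD of the mean member level within groups was 0.12, against 1.00 in the lines. The median change of the 35 members between Artemis-deficient and RAG-1-deficient marrow was −0.32, negative for 34 of them, where the median of all genes was 0.00. In 27 of 35 members both Artemis-deficient samples lay below both RAG-1-deficient samples, and 25.2% of all genes did so. limma called 1 of 65 member probe sets and 2.56% of all probe sets, and 15 member probe sets had an unadjusted p below 0.05. The called one was a second probe set of Cenpe, at 6.42 and 7.04 in Artemis-deficient and 8.09 and 8.30 in RAG-1-deficient marrow (−1.47 ± 0.26, 2.76-fold lower, adjusted p = 0.0386). It was not called without RAG-1-deficient replicate 1 or 2 (adjusted p = 0.259 and 0.257). The main Cenpe probe set differed less, at 8.58 and 8.66 against 9.24 and 8.65, and those groups overlapped.

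Further members came near the threshold in the marrow. Kif23 was 8.79 and 9.08 in Artemis-deficient and 9.91 and 9.67 in RAG-1-deficient marrow (−0.86 ± 0.19, adjusted p = 0.0624). Cdc25b, which stood apart in the lines, was 9.06 and 9.05 against 9.80 and 9.75 (−0.72 ± 0.16, adjusted p = 0.0647). Anln was 9.03 and 8.84 against 9.80 and 9.57 (−0.75 ± 0.18, adjusted p = 0.0791). In contrast, Mki67 read 11.96 and 11.97 against 12.04 and 12.00, and Top2a 11.93 and 11.90 against 12.24 and 11.98. Melk, at 7.96 and 8.03 against 8.16 and 7.59, was the only member with a positive change. The median change was −0.19 without RAG-1-deficient replicate 1 and −0.46 without RAG-1-deficient replicate 2.

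**Figure D5:**
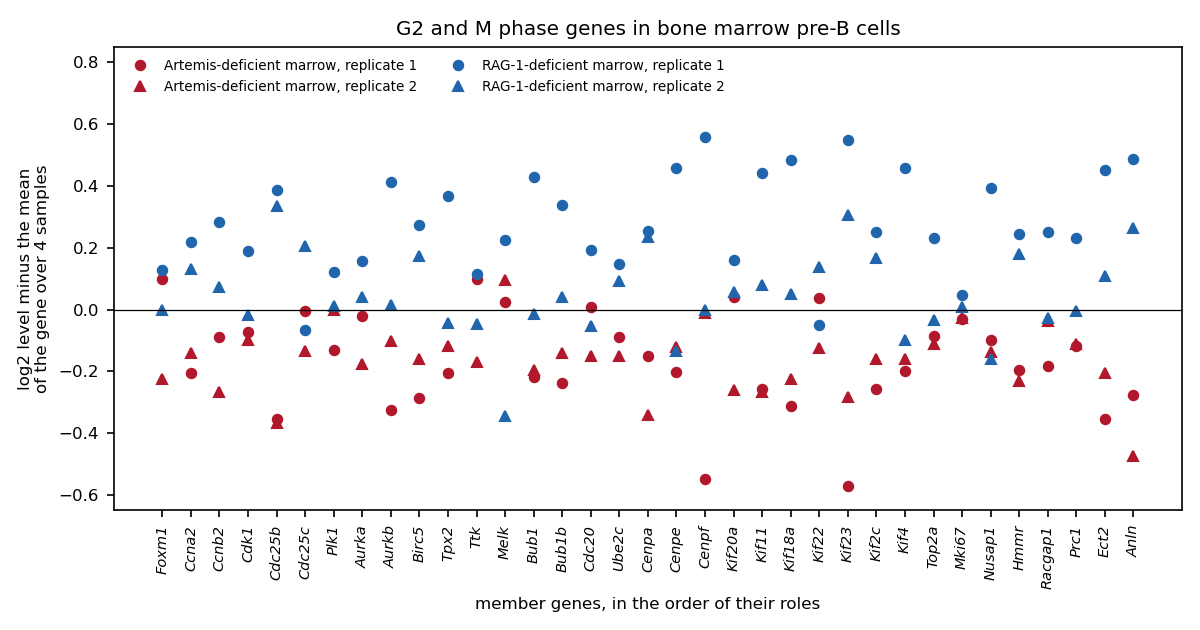
Levels of the 35 members in bone marrow pre-B cells, as log2 level minus the mean of the gene over the 4 samples; red is Artemis-deficient and blue RAG-1-deficient marrow, and circles and triangles are replicates 1 and 2. Red symbols lie below blue ones for 27 of 35 members, and the points of Mki67 nearly coincide.

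Markers of other cells differed between the marrow groups in both directions. All 5 dendritic cell markers that passed the filter (Siglech, Itgax, Flt3, Bst2 and Irf8) were called higher in Artemis-deficient marrow, with mean relative levels of 0.72 to 1.08 against −1.23 to −0.57. All 12 neutrophil and monocyte markers had a positive change (median 0.64, 1 called, mean relative levels of 0.32 to 0.45 against −0.63 to −0.15), as had all 5 T and NK cell markers that could be fitted (median 0.71, 0 called by limma, 4 at an unadjusted p below 0.05). Other lists read lower in Artemis-deficient marrow, as most members did. Pre-B cell markers had a median change of −0.77, with Rag1 and Vpreb1 called lower. Rag1 is also the gene that the RAG-1-deficient mice lack, so its change cannot be read as that of a marker alone. Mature B and plasma cell markers had a median of −0.64 (4 of 5 negative, 0 called by limma, 2 at an unadjusted p below 0.05), with mean relative levels of −0.34 to −0.16 against −0.02 to 0.52. Erythroid markers had a median of −0.39 (4 of 6 negative, 0 called by limma, 3 at an unadjusted p below 0.05). S phase genes changed by a median of −0.24, negative for 40 of 42. The part of these cells in the member levels was not tested.

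Other genes of the cycle were set beside the members from lists chosen by function. Of 53 other mitotic genes, 31 correlated with the mean member level at 0.90 or more over the line samples, with a median of 0.93. In the IkB-DN samples against RAG-2-deficient lines, 48 of 57 of them had a negative change, while 3 were called higher: Gtse1 by 2.12 ± 0.38 (adjusted p = 0.00623), Gas2l3 by 2.05 ± 0.35 (0.00477) and Ndc80 by 1.39 ± 0.27 (0.00924). In no other comparison of lines with the RAG-2-deficient control was one called by limma, where 4 each had an unadjusted p below 0.05. Mean relative levels of 36 S phase genes covered a smaller span than those of the members, from −0.45 in Artemis-deficient replicate 1 to 1.25 in wild type replicate 1. They were −0.33, −0.23 and −0.29 in the third replicates of RAG-2-deficient, wild type and Artemis-deficient lines. Among the regulators of mitotic genes, E2f2 was higher in Artemis- and ATM-deficient lines than in IkB-DN samples by 1.88 ± 0.45 (adjusted p = 0.0301) and Mybl1, a relative of B-MYB, by 1.41 ± 0.38 (0.0479). Mybl1 was low in the IkB-DN samples, at 3.73, 3.11 and 3.99. That comparison was added after the values were seen, and limma called 6.71% of all probe sets in it. The S phase genes Rpa2 (−0.91 ± 0.21, adjusted p = 0.0277) and Pola2 (−0.60 ± 0.15, 0.0391) were called lower there. A second probe set of each was not called.

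Apart from the members and the other mitotic genes, the 10 genes most like the members were found by Pearson correlation with the mean member level over 14 line samples, among 9351 genes. They were Kif18b (r = 0.98), Cdkn3 (0.98), Cip2a (0.98), H2ax, Knstrn, Hmgb2, Kpna2, Pif1, Fbxw22 and Rrm2 (0.94). The 10 at the other end were Tmub2 (−0.89), Rbm5 (−0.89), Armcx2, Nr2c1, Anxa4, Lamp1, Zfyve26, Khnyn, Lrch1 and Stac3 (−0.84). Without wild type replicate 1 the first 10 kept correlations of 0.90 to 0.98 and the last 10 of −0.92 to −0.78. Kif18b is a motor at microtubule ends and a relative of Kif18a, whose own correlation with the other members was 0.48.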

How the data were processed

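RNA of 20 samples was read on Affymetrix mouse arrays with the GeneChip Operating Software, per the labels. The values deposited by the authors were log10 signals, 1 per probe set and array. The base was inferred from the values. How probes were summarised, the background subtracted and the arrays scaled is not stated in the labels. Empty cells (14.7%) stayed empty. The number of arrays, not a read depth, limits the precision.

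Values were turned back to signals, a pseudocount at the 25th percentile of the signals was added (6 in the lines, 11 in the marrow), and log2 was taken, so a fold change understates changes of low genes. Where a line had 2 arrays (Artemis- and ATM-deficient), their mean was 1 sample. Probe sets with at least 2 samples at or above the median of their array were kept (21921 in the lines, 19520 in the marrow). Of the probe sets, 34294 had 1 gene in GEO's platform annotation, 916 several and 8990 none. A gene was read from its probe set with the highest mean level, chosen separately in the lines and in the marrow. Levels were compared between samples on the same probe set, and further probe sets are named as such where they are given. limma 3.58.1 in R 4.3.3 (lmFit and eBayes) fitted all 5 groups of lines together and the marrow apart, with Benjamini-Hochberg adjustment over all probe sets kept and a threshold of 0.05. The fit of the lines had 9 residual degrees of freedom, and that of the marrow 2. All p-values in the text are from limma. The code was tested on simulated data. Plots used Python 3.11.15 and matplotlib 3.10.9.

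The members and the lists of other genes were chosen with earlier results of these data known. Any member could be named. From the other lists, genes called in a comparison could be named (up to 6 per list and comparison, largest change first). Not all of them are described here: among those left out are Gadd45a, Cdk6, Cdkn1b, Cdkn2c, Ccnd2, Ccnd3, Ccng2 and Foxo1. The 10 genes most and the 10 least alike the members by correlation were named as well. The comparison of Artemis- and ATM-deficient lines with IkB-DN samples, the use of single arrays, the counts over members and their ranges with other pseudocounts were added after the values were seen. Alternatives were another pseudocount, no filter, quantile normalization, other groups in the fit, single arrays and leaving out each sample in turn.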

Additional observations from a re-analysis of the deposited data

How the results depend on the processing

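No paired analysis was possible because the labels give no replicate numbers that pair samples: numbers were given in accession order. The count of called member probe sets moved as follows, by limma. The F test over 5 groups called 1, but 0 with the IkB-DN samples averaged as 1 sample, and 0 to 5 with 1 sample left out (5 without wild type replicate 3, 0 without IkB-DN replicate 2). Artemis- and ATM-deficient against IkB-DN lines gave 0, but 1 with a pseudocount of 1, 1 with the second arrays alone, 50 with only these groups in the fit, and 40 and 39 with only these groups and the first or second arrays. Artemis-deficient against wild type lines gave 1, but 0 with only these groups in the fit and 0 to 1 with a sample left out. IkB-DN against RAG-2-deficient lines gave 0, but 3 with only these groups in the fit, and wild type against RAG-2-deficient lines 0 to 1 with a sample left out. The marrow gave 1, but 3 with no filter, 2 after quantile normalization and 0 to 4 with a sample left out. The median change of the members in the marrow was −0.46 to −0.19 with a sample left out. Under pseudocount, filter, scaling and the groups in the fit, all 9 medians of the members kept their direction. Counts of members by spread, likeness and overlap stayed within 1.5 times (107 of 107 alternatives), from 24 to 30 for the 29 members with a wide spread, and from 26 to 33 for the 32 above the Artemis-deficient lines. Calls over all probe sets moved by more than 1.5 times under 46 alternatives and by less under 58. Changes of single members crossed the threshold upward in 90 and downward in 8 cases, and no called change took the other sign. The cause of these differences was not tested, except that fewer groups in the fit change the estimate of the spread.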

Other observations

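Some genes of mitosis and of the cell cycle that are no members had values unlike those of the members. Gas2l3, which links actin and microtubules, was 7.15, 7.77 and 6.96 in RAG-2-deficient replicates 1 to 3 and 9.40, 9.39 and 9.23 in the IkB-DN samples, on the log2 scale. It was also higher in the IkB-DN samples than in the Artemis-deficient lines, which read 7.20, 7.26 and 7.73 (limma, −1.94 ± 0.35 for Artemis-deficient minus IkB-DN, adjusted p = 0.0177). Its other 2 probe sets were called in the same direction. Gtse1, a microtubule-bound protein of G2 and M phase, was 7.43, 7.78 and 7.81 in the IkB-DN samples, and the RAG-2-deficient lines read 4.81, 6.24 and 5.61. Ndc80, a kinetochore protein that holds microtubules, was 8.56, 8.24 and 8.09 against 6.33, 7.25 and 7.14. The IkB-DN and RAG-2-deficient samples did not overlap for any of these 3 genes. Ndc80 was not particular to the IkB-DN samples: it read 8.21 and 8.56 in the Artemis- and ATM-deficient lines and 8.20 in wild type replicate 1. Outside the IkB-DN samples, Gtse1 reached 7.20 (Artemis-deficient replicate 2) and Gas2l3 8.99 (Artemis- and ATM-deficient line 2), below every IkB-DN sample.

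Pttg1 (securin), the inhibitor of separase, was the only one of 60 other mitotic genes called by limma in the marrow, and it was higher in Artemis-deficient cells. Its level was 11.39 and 11.25 there and 9.95 and 9.94 in RAG-1-deficient cells (1.38 ± 0.15, adjusted p = 0.0229), and its second probe set changed by 1.45 ± 0.26 (adjusted p = 0.0391). Of these 60 genes, 56 had a negative change.

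Ccnd1, cyclin D1 of G1 phase, was lower in the RAG-2-deficient lines (3.30, 3.18 and 3.43) than in every other line sample (4.64 to 5.79), and limma called it higher in all 4 groups, by 1.51 to 2.24. The Ccnd1 signals of the RAG-2-deficient lines were under the pseudocount of 6, so the size of these changes depends on it. In the marrow Ccnd1 was 10.52 and 11.46 in Artemis-deficient and 8.66 and 9.25 in RAG-1-deficient cells (2.04 ± 0.33, adjusted p = 0.0310). Among S phase genes, Rfc3, a subunit of the clamp loader, was lower than in the RAG-2-deficient lines in the IkB-DN samples (−1.22 ± 0.20), the Artemis-deficient lines (−1.06 ± 0.20) and those also lacking ATM (−1.19 ± 0.23), with adjusted p = 0.0042, 0.0289 and 0.0370 by limma. It was also lower in the Artemis-deficient than in the wild type lines (−1.60 ± 0.20, adjusted p = 0.0075), as was Mcm6 of the replicative helicase (−1.56 ± 0.28, adjusted p = 0.0356). A second Mcm6 probe set changed by −1.36 ± 0.33 there and was not called (limma, adjusted p = 0.0996).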
